A study of Arabidopsis thaliana with 56 samples.

Results

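A group of 10 genes that regulate the nitrogen response in Arabidopsis was followed across a transcription factor (TF) screen in root cells. The 10 genes were taken by their locus identifiers from all 56 count tables, each of which lists 33016 genes, and all 10 had a row in every table. They are the LOB-domain genes LBD37 (AT5G67420), LBD38 (AT3G49940) and LBD39 (AT4G37540), the NIGT1-type genes HRS1 (AT1G13300), HHO1 (AT3G25790), HHO2 (AT1G68670) and HHO3 (AT1G25550), the RWP-RK gene NLP7 (AT4G24020), the BTB/TAZ gene BT2 (AT3G48360) and the bZIP gene TGA1 (AT5G65210). In the RefSeq annotation of TAIR10.1, no member overlapped another annotated gene.

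The libraries come from the TARGET assay, a transient test of how transcripts change after a TF is released into the nucleus. Root protoplasts, plant cells stripped of their walls, were made from Col-0 seedlings 10 days old and transfected with a plasmid for 1 of 13 TFs (47 libraries) or with the empty vector (EV, 9 libraries). Every library, EV included, received 35 μM cycloheximide (CHX), which blocks protein synthesis, and 10 μM dexamethasone (DEX), which triggers nuclear entry of the TF fusion protein. RNA was extracted from fluorescent cells collected on a sorter. Batch 1 holds ABF1, FBH3, HSFA6A and ZAT6, batch 2 holds DIV2, GBF2, HSFA6A, MYB3, MYBR1 and WRKY33, and batch 3 holds ABF3, DREB2A, FBH3, GBF2, GBF3 and HB7, each with EV of the same batch. A group had 3 libraries, apart from ABF3 with 2. By the study's methods the replicates were wells of cells from 1 transfection, so p-values measure the spread between wells. TFs were carried by plasmids with either of a pair of fluorescent markers, and since the assignment of marker to library was not used here, marker and TF cannot be told apart. No agent or time course of nitrogen supply enters any comparison. By the study's methods the plants grew on agar with sucrose and a salt mix given as MS basal salts (–CN). Levels in plants from other media were not measured.

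Nitrate acts in plants as a nutrient and as a signal. NLP7 is a nitrate-responsive activator at the top of the pathway, and it switches on genes for nitrate uptake and reduction together with genes of repressors. Among those repressors, LBD37, LBD38 and LBD39 act on anthocyanin and nitrate transport genes, and HRS1 and the HHO proteins restrain high-affinity nitrate uptake and link nitrate with phosphate status. BT2 is a scaffold protein that lowers nitrate uptake, and TGA1 promotes expression of nitrate transporter genes.

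The libraries held between 8619133 and 29763752 counts (median 17460033). A set of 4 loci resembling ribosomal RNA genes took 0.996% to 78.1% of a library, so that 5603969 to 23463910 counts remained for other genes. The gene of the transfected TF was above every EV library of its batch in all of its libraries in 16 of 16 comparisons, with the smallest ratio of means, 2.07, for WRKY33. Of 11 root cell type markers, SCR and CASP1 of the endodermis and APL and SUC2 of the phloem had medians of 16.9, 10.6, 16.3 and 10.6 CPM over the EV libraries, whereas the cortex marker CO2 had no count in any of the 56 libraries and the median of the root hair markers COBL9 and EXPA7 was 0. The leaf markers were at or near 0 in EV cells, with a highest value of 1.1 CPM.

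Levels in EV cells spanned a wide range. On the RPKM scale, which divides library-scaled counts (CPM) by the exonic length of the gene, HHO3 was the most abundant member with 172 ± 11.6 RPKM, followed by HHO2 with 59.0 ± 11.4, TGA1 with 21.4 ± 4.30 and NLP7 with 10.3 ± 1.93 RPKM (mean ± SD, n = 9 EV libraries). Each of these 4 genes lay above the gene that follows it in every EV library, so their order did not depend on the library. HHO3 was at the 98.1st percentile of genes with any count in EV cells, and NLP7 at the 78.0th percentile.

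Below them, LBD38 averaged 3.38 ± 1.11 RPKM, HRS1 2.08 ± 1.18, LBD37 1.86 ± 1.01 and BT2 0.92 ± 0.40 RPKM in the same 9 libraries. From LBD38 downward, the range of each gene overlapped that of the gene after it, so their order was not resolved. LBD39 and HHO1 were close to the limit of detection: LBD39 had 59 counts over the 9 EV libraries together and none in 3 of them, and HHO1 had 41 counts, of which 33 came from a single library, and none in 6. A count of 0 allows a level of up to 3 counts, which is 0.371 CPM in the shallowest EV library and concerns counting error only.

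**Figure D1:**
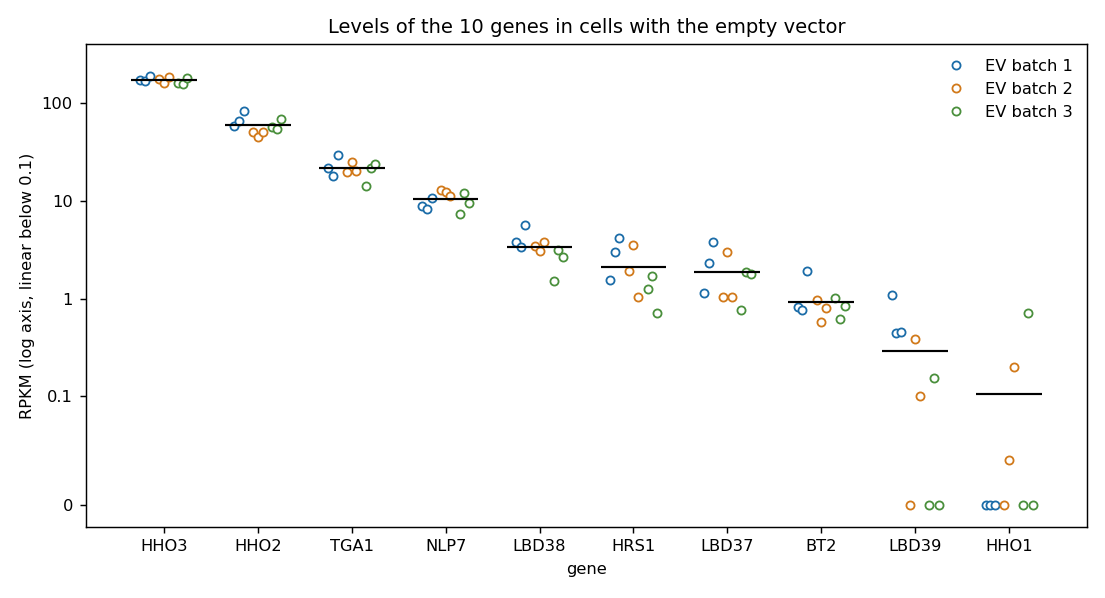
RPKM of the 10 genes in the 9 EV libraries (open circles, coloured by batch; the vertical axis is logarithmic above 0.1 and linear below), with the mean over the libraries as a bar. HHO3, HHO2, TGA1 and NLP7 form separate steps of 172, 59.0, 21.4 and 10.3 RPKM, and the lower 6 genes overlap their neighbours.

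Between the 3 batches, EV levels of the members were compared by the edgeR quasi-likelihood test. The test called 0 of the 8 members that passed the filter on low counts, against 11.7% of all genes tested, and 1 member, HHO2, had an unadjusted p under 0.05 (adjusted p = 0.13). DESeq2 called 1 member, HHO2 (adjusted p = 0.049). The mean EV level of HHO2 was 127 CPM in batch 1, 90.2 CPM in batch 2 and 111 CPM in batch 3. A TF was set against EV of its own batch, so a batch difference cancels only where the TF libraries share it. Whether they do was not tested.

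Responses to the TFs were tested for each pair of member and comparison. A gene passed where the edgeR quasi-likelihood test gave a Benjamini-Hochberg adjusted p under 0.05 over all genes of that comparison. Of 160 pairs of member and comparison, 140 passed the filter on low counts, and 12 of these (8.57%) were called, 9 higher and 3 lower, against 5.93% of all pairs of gene and comparison tested (3.45% higher, 2.48% lower). The 12 calls fell on 6 members and in 7 comparisons, and 7 of them had an absolute log2 fold change of at least 1. In all 12, the 3 TF libraries lay on the same side of the 3 EV libraries of the batch. Over all 160 pairs, 42 had no overlap between TF and EV libraries, close to the share of 25.8% among genes with a mean of at least 1 CPM. The 160 pairs also hold LBD39 and HHO1, with medians of 0.619 and 0 CPM over the 56 libraries. Changes in the share of a cell type among the sorted cells and changes in RNA per cell cannot be told apart in such bulk samples.

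**Figure D2:**
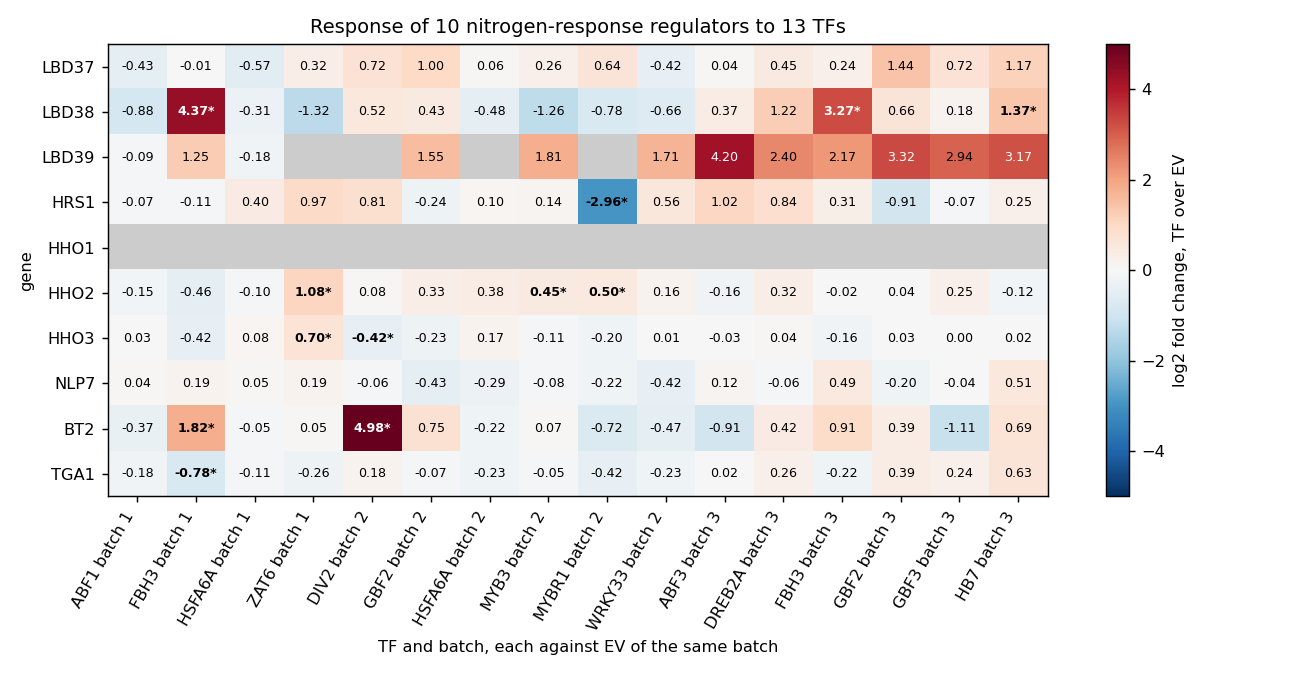
Log2 fold change of each member (rows) in each TF and batch (columns) over EV of the same batch, with an asterisk at an adjusted p under 0.05 and grey where the gene did not pass the filter on low counts. The largest called values are 4.98 for BT2 in DIV2 cells and 4.37 for LBD38 in FBH3 cells of batch 1. The LBD39 row has large values with no asterisk.

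LBD38 gave the clearest response of the LOB-domain genes. The gene lies on chromosome 3, from 18514266 to 18516131 on the plus strand. The FBH3 cells of batch 1 had 228, 168 and 67.1 CPM, against 5.94, 6.78 and 10.0 CPM in EV cells of that batch. All FBH3 libraries were far above all EV libraries, although the FBH3 libraries differed from each other by more than the EV libraries did. The log2 fold change was 4.37 (SE 0.39, adjusted p = 3.47e-06, edgeR). FBH3, a basic helix-loop-helix factor, was assayed again in batch 3 with its own EV libraries.

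LBD38 was again high in FBH3 cells of batch 3, with 45.0, 44.8 and 37.4 CPM, against 5.50, 4.70 and 2.68 CPM in EV cells of batch 3. The groups were again fully apart, and here the FBH3 libraries were close together. The log2 fold change was 3.27 (SE 0.26, adjusted p = 8.57e-07, edgeR). The response of batch 3 minus that of batch 1 was -1.05 (SE 0.46, adjusted p = 0.62), so the smaller value of batch 3 was not resolved from that of batch 1. Both calls held in each of the 6 fits that left out 1 library, with log2 fold changes of 3.94 to 4.72 in batch 1 and 3.04 to 3.49 in batch 3.

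HB7, a homeodomain-leucine zipper factor, gave a smaller rise of LBD38. The libraries had 11.8, 10.8 and 10.2 CPM in HB7 cells, against 5.50, 4.70 and 2.68 CPM in EV cells of batch 3, with no overlap. The log2 fold change was 1.37 (SE 0.29, adjusted p = 0.011, edgeR), and LBD38 was the only member called of the 9 tested in HB7 cells, where 5.52% of all genes were called (3.43% higher). The call was lost without HB7 replicate 2 (1.28, adjusted p = 0.063) and with EV of batch 3 as the sole control libraries (1.38, adjusted p = 0.074).

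Elsewhere LBD38 was not called. Its uncalled log2 fold changes ran from -1.32 in ZAT6 cells to 1.22 in DREB2A cells, where the adjusted p of 0.0503 was just above the threshold. All 3 libraries lay below those of EV in ABF1, MYB3, MYBR1, WRKY33 and ZAT6 cells, none of which passed the test. LBD38 was called lower in MYB3 cells with EV of batch 2 as the sole control libraries (-1.23, adjusted p = 0.029, edgeR). In ZAT6 cells 1 library held a single LBD38 count, 0.125 CPM, and the other libraries had 3.75 and 4.96 CPM.

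BT2 gave the largest response of all members. It lies on chromosome 3, from 17907767 to 17910738 on the minus strand. In DIV2 cells it had 69.4, 64.1 and 62.3 CPM, against 2.55, 2.1 and 1.5 CPM in EV cells of batch 2. The DIV2 libraries agreed closely with each other and lay far above EV. The log2 fold change was 4.98 (SE 0.33, adjusted p = 6.7e-08, edgeR), and it stayed between 4.81 and 5.15 when 1 library was left out. DIV2 is a MYB-related factor, and its comparison called 18.1% of all genes, 8.71% higher and 9.37% lower. Over the 56 libraries, no other group had a BT2 value above 12.8 CPM. The summed level of the root markers was 51.4 to 62.1 CPM in DIV2 cells, against 80.3 to 88.6 CPM in EV cells. The sum lay below those EV libraries in the other TF groups of batch 2 as well. In DIV2 cells CASP1 and APL were called lower. The part of these marker levels in the responses of BT2 and HHO3 was not tested.

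That second-highest level, 12.8 CPM, was found in FBH3 cells of batch 1, where BT2 had 12.8, 10.4 and 8.54 CPM, against 5.02, 2.15 and 1.98 CPM in EV cells. The groups did not overlap. The log2 fold change was 1.82 (SE 0.43, adjusted p = 0.018, edgeR). The call was lost without FBH3 replicate 1 or 2 and without EV replicate 1 or 2, with log2 fold changes of 1.79, 1.65, 1.60 and 1.61 and adjusted p-values of 0.0684, 0.0541, 0.103 and 0.0959, in that order. The FBH3 libraries of batch 3 had 5.98, 4.01 and 2.12 CPM, against 2.68, 2.2 and 1.61 CPM in EV cells, and the groups overlapped (log2 fold change 0.91, not called). The difference between batches was -0.86 (SE 0.63, adjusted p = 0.81).

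Of the 9 members tested in FBH3 cells of batch 1, 3 were called, 2 higher and 1 lower, against 6.24% of all genes (4.58% higher, 1.66% lower), and in batch 3 LBD38 alone was called, against 4.32% of all genes (3.52% higher). Of 8 root markers tested, PHO1 and CASP1 were called higher in FBH3 cells of both batches, and no other was called. PHO1, a stele marker and phosphate exporter gene, had 121 to 172 CPM in FBH3 cells of batch 1, against 6.75 to 9.53 CPM in EV cells, and 10.5 to 19.0 CPM in FBH3 cells of batch 3, against 1.62 to 4.86 CPM in EV cells. CASP1, an endodermis marker, had 31.4 to 67.5 CPM in FBH3 cells of batch 1, against 9.81 to 10.6 CPM in EV cells. The other endodermis marker, SCR, had a log2 fold change of 0.33 in batch 1, and the phloem markers APL and SUC2 had -0.70 and -0.98, with SUC2 at 4.34 to 6.83 CPM in FBH3 cells, against 8.08 to 16.7 CPM in EV cells. The summed level of the 11 root markers was 191 to 284 CPM in FBH3 cells of batch 1, against 65.1 to 83.5 CPM in EV cells, and 71.4 to 77.2 CPM in FBH3 cells of batch 3, against 45.2 to 50.9 CPM in EV cells. PHO1 made up most of the sum in FBH3 cells of batch 1. The summed level of the 5 leaf markers reached 3.50 CPM in FBH3 cells of batch 1, in which every library lay above the 0.866 to 1.57 CPM of EV cells. The part of these marker levels in the responses of LBD38, BT2 and TGA1 was not tested.

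**Figure D3:**
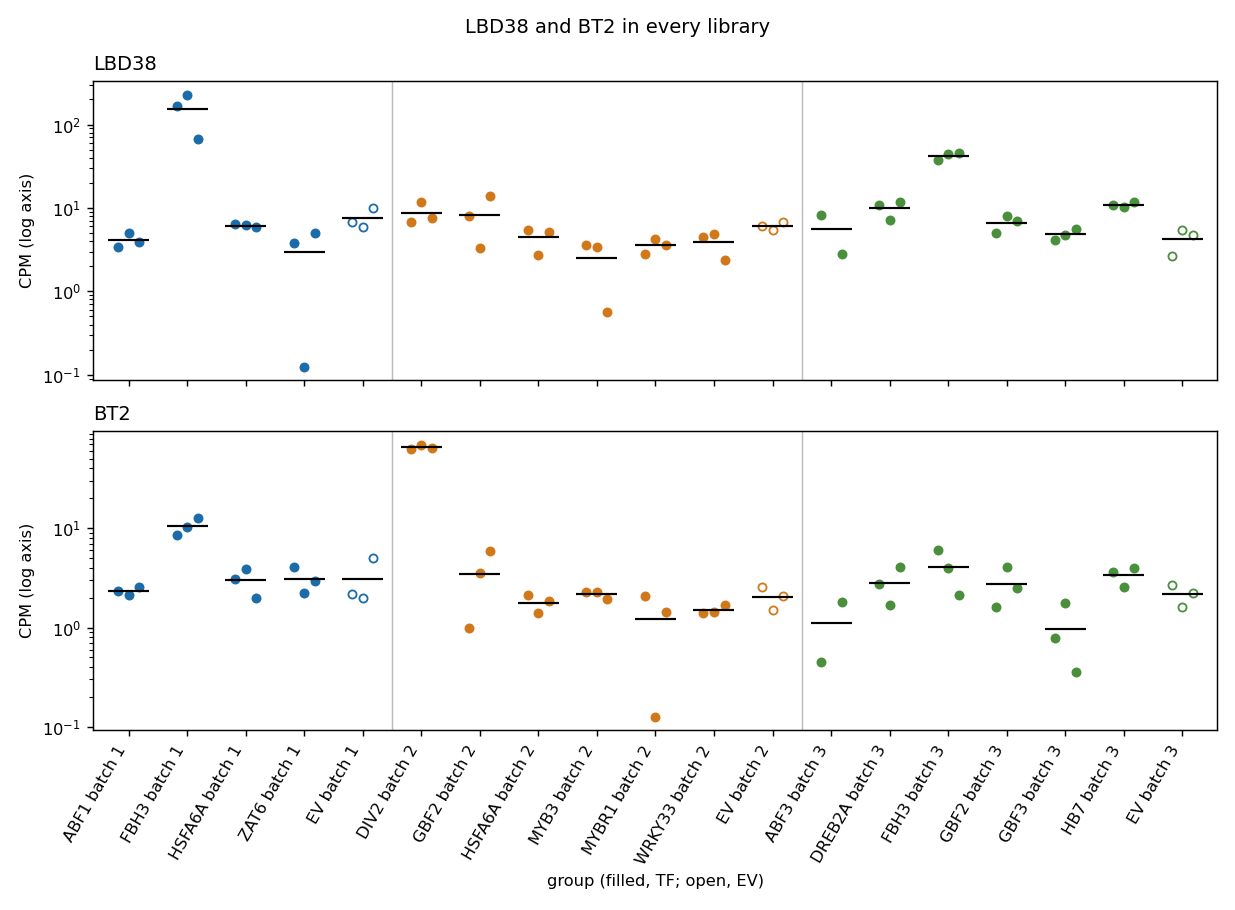
CPM of LBD38 and BT2 in every library on a logarithmic axis, by batch, with TF groups (filled circles) to the left of EV (open circles) and the group mean as a bar. LBD38 stands apart in FBH3 cells of both batches, and BT2 in DIV2 cells, where all libraries lie between 62.3 and 69.4 CPM.

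The sequences just upstream of these 2 genes are shown because the genes gave the largest called responses and both rose in FBH3 cells of batch 1. Each is the run of 250 bases before the annotated start of the gene in RefSeq's TAIR10.1, written 5′ to 3′ along the gene's own strand. LBD38 is chr3:18514016-18514265 on the plus strand, and BT2 is chr3:17910739-17910988 on the minus strand. Capitals mark the words AATNATT, bound by homeodomain-leucine zipper factors such as HB7, and TATCCA, bound by MYB-related factors.
LBD38: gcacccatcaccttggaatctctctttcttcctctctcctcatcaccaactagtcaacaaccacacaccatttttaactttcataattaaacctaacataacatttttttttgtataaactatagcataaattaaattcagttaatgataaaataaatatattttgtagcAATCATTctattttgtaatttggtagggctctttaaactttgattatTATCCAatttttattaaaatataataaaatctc
BT2: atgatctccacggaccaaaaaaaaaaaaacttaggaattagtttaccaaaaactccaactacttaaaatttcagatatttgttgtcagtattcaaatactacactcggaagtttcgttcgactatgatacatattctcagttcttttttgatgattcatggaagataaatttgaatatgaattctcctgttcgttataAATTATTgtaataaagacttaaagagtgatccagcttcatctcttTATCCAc

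Words were searched on both strands in windows of 300 bases that also hold the first 50 bases of the gene. AATNATT began at -80 in LBD38 and at -52 in BT2, counted from the start of the gene. It was in the windows of 5 of the 10 members and of 33.8% of 27443 protein-coding genes. BT2 was not called in HB7 cells (log2 fold change 0.69). TATCCA began at -33 in LBD38 and at -7 in BT2. It was in the windows of 5 of the 10 members and of 16.1% of genes. LBD38 was not called in DIV2 cells (log2 fold change 0.52), and HHO3, which also held the word, was called lower there (-0.42). The word of basic helix-loop-helix factors, CANNTG, in 61.7% of windows, was not found in that of LBD38 and began at -1 in that of BT2. CACGTG was found in 0 of the 10 members' windows, and in 7.68% of all windows. A word is a match of letters and no evidence that a factor binds.

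BT1, a close relative of BT2 from the same group of scaffold proteins, was called higher in 6 comparisons and lower in 2 of 16. In ABF3 cells, where BT2 was not called (log2 fold change -0.91), BT1 had 160 and 122 CPM, against 9.17, 7.18 and 6.25 CPM in EV cells (log2 fold change 4.24, SE 0.20, adjusted p = 4.04e-08, edgeR). ABF3 is a bZIP factor of abscisic acid signalling, and its libraries were far above EV for BT1 alone of this pair. In DIV2 cells, where BT2 rose, BT1 fell: it had 7.46, 4.64 and 2.49 CPM, against 16.0, 14.1 and 13 CPM in EV cells (log2 fold change -1.55, SE 0.32, adjusted p = 0.0025, edgeR). Both genes were called higher in FBH3 cells of batch 1, BT1 with a log2 fold change of 2.55 (SE 0.27). BT1 also rose in ABF1 (2.84), HB7 (2.22), FBH3 of batch 3 (1.71) and DREB2A cells (0.91), and fell in MYBR1 cells (-1.25).

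**Figure D4:**
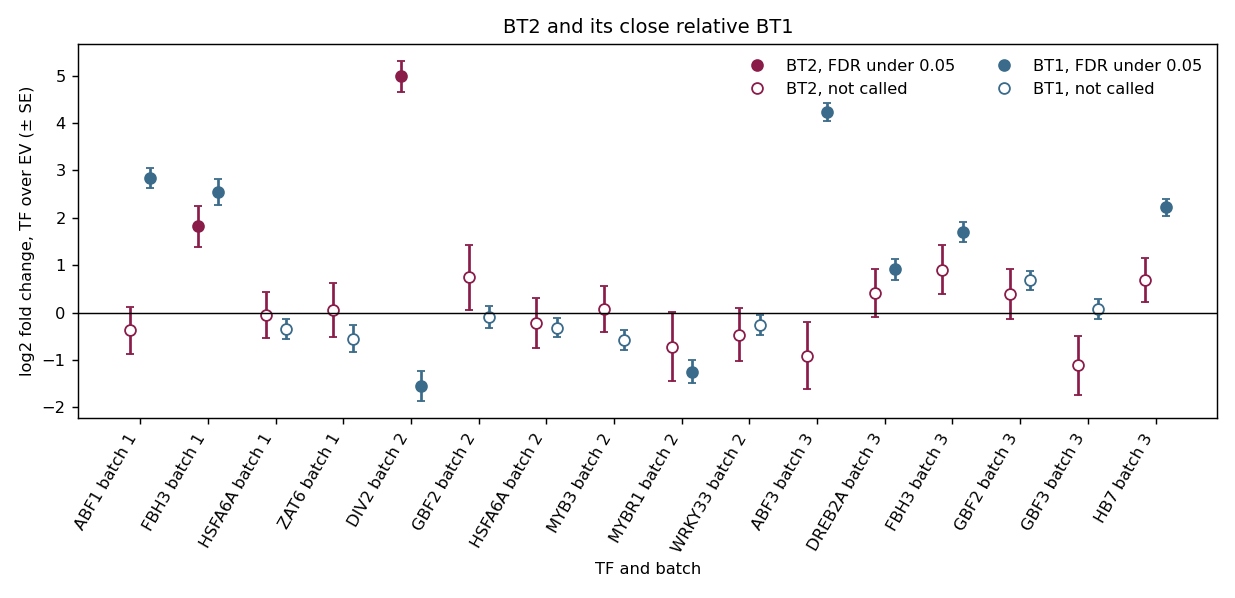
Log2 fold change of BT2 and BT1 over EV of the same batch in 16 comparisons, with the SE of the fit as bars and filled circles at an adjusted p under 0.05. In DIV2 cells BT2 stands at 4.98 and BT1 at -1.55, and in ABF3 cells BT1 stands at 4.24 and BT2, not called, at -0.91.

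The 4 NIGT1-type genes encode GARP-family repressors. HHO2 and HHO3 responded together in ZAT6 cells, and ZAT6 is a zinc finger factor. HHO2 (chromosome 1, 25781801 to 25784118, plus strand) had 323, 282 and 183 CPM in ZAT6 cells, against 152, 121 and 107 CPM in EV cells of batch 1. Every ZAT6 library was above every EV library, and the log2 fold change was 1.08 (SE 0.19, adjusted p = 0.006, edgeR). HHO3 (chromosome 1, 8976326 to 8978305, plus strand) had 545, 536 and 433 CPM in ZAT6 cells, against 340, 307 and 303 CPM in EV cells. The groups were again apart, with a log2 fold change of 0.70 (SE 0.12, adjusted p = 0.006, edgeR). Both were called in each of the 6 fits without 1 library. In ZAT6 cells 2 of the 8 members tested were called, both higher, against 3.19% of all genes (1.47% higher). HRS1, the third member of the family with enough counts, had 8.0, 7.90 and 6.14 CPM in ZAT6 cells, against 5.49, 3.96 and 2.05 CPM in EV cells, with no overlap but no call (log2 fold change 0.97). The ribosomal RNA-like loci took 40.7% to 70.6% of the ZAT6 libraries, against 29.7% to 61.3% of the EV libraries of batch 1. With these loci left out, both calls were kept.

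The sequences upstream of HHO2 and HHO3 are given because only these 2 members of the NIGT1 type were called higher with the same TF. HHO2 is chr1:25781551-25781800 and HHO3 chr1:8976076-8976325, both on the plus strand of TAIR10.1, and each run again ends at the base before the annotated start. Capitals mark TTGAC or its reverse complement GTCAA, the word of WRKY factors and the sole searched word found in the upstream part of both.
HHO2: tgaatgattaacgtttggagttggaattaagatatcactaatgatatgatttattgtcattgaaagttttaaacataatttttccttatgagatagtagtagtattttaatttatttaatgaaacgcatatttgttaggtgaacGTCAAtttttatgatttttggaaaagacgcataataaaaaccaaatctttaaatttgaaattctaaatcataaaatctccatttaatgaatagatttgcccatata
HHO3: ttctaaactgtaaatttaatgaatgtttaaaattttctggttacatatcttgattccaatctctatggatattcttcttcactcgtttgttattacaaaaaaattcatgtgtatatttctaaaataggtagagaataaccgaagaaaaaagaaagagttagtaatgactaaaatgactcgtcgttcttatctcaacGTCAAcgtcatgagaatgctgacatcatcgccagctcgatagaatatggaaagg

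TTGAC began at -106 in HHO2 and at -54 in HHO3. It was in the windows of 6 of the 10 members and in 50.5% of all windows. In WRKY33 cells HHO2 (log2 fold change 0.16) and HHO3 (0.012) were not called. TACAAT, the word searched for ZAT6, was in 23.9% of all windows and not in those of HHO2, HHO3 or HRS1. GAATC, a part of the word bound by the NIGT1-type proteins themselves, was in the windows of 9 of the 10 members, all but HHO2, and in 45.1% of all windows.

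HHO2 was also called in 2 comparisons of batch 2, with smaller differences. Its level was 123 ± 8.26 CPM in MYB3 cells and 90.2 ± 5.57 CPM in EV cells (SD, n = 3 each; log2 fold change 0.45, SE 0.14, adjusted p = 0.049, edgeR). In MYBR1 cells it was 127 ± 8.80 CPM, against the same EV libraries (log2 fold change 0.50, SE 0.14, adjusted p = 0.029, edgeR). Both comparisons share their EV libraries, so their likeness is no independent support. HHO2 also lay above all of these EV libraries, without a call, in GBF2 (0.33), HSFA6A (0.38) and WRKY33 cells (0.16) of batch 2. In DIV2 cells it overlapped them (0.076). The rise was thus not particular to MYB3 and MYBR1 cells. Leaving out 1 library ended the call in MYB3 cells in all 6 cases (adjusted p of 0.0743 to 0.189), and in MYBR1 cells without MYBR1 replicate 2 or 3 or any of the 3 EV replicates (adjusted p of 0.0753 to 0.115). The call in MYB3 cells was the only one among 9 members tested, against 10.6% of all genes (6.32% higher). The summed root markers were at 51.6 to 61.6 CPM in MYB3 cells, against 80.3 to 88.6 CPM in EV cells, with APL called lower, and their part in the HHO2 response was not tested.

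HHO3 fell in DIV2 cells, to 232 ± 32.4 CPM, against 311 ± 23.9 CPM in EV cells (SD, n = 3 each; log2 fold change -0.42, SE 0.12, adjusted p = 0.022, edgeR). This call was lost without DIV2 replicate 1 (-0.32, adjusted p = 0.0983), EV replicate 2 (-0.39, adjusted p = 0.0988) or EV replicate 3 (-0.41, adjusted p = 0.0761). With BT2 it made 2 calls among the 8 members tested in DIV2 cells, against 18.1% of all genes. In FBH3 cells of batch 1, HHO3 and HHO2 lay below EV in every library without passing the test (log2 fold changes -0.42 and -0.46).

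HRS1 was the only member with a large called fall. It lies on chromosome 1, from 4556878 to 4558793 on the plus strand. In MYBR1 cells it had 0.756, 0.200 and 0.179 CPM, against 4.69, 2.55 and 1.40 CPM in EV cells of batch 2. These are 6, 2 and 2 counts in MYBR1 cells, against 69, 39 and 30 counts in EV cells. All MYBR1 libraries were below all EV libraries, at a depth where few counts decide the size of the fold. The log2 fold change was -2.96 (SE 0.78, adjusted p = 0.019, edgeR). The call was lost without MYBR1 replicate 2 (-2.61, adjusted p = 0.0892), MYBR1 replicate 3 (-2.67, adjusted p = 0.0727) or EV replicate 1 (-2.40, adjusted p = 0.113). MYBR1 replicate 1 had the largest share of ribosomal RNA-like counts of all libraries, 78.1%, and the lowest number of other counts, 5603969. The summed root markers were at 46.9 to 64.0 CPM in MYBR1 cells, against 80.3 to 88.6 CPM in EV cells, with APL called lower, and their part in the result was not tested. In MYBR1 cells 2 of 8 members tested were called, 1 higher and 1 lower, against 11.9% of all genes (6.04% higher, 5.87% lower).

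**Figure D5:**
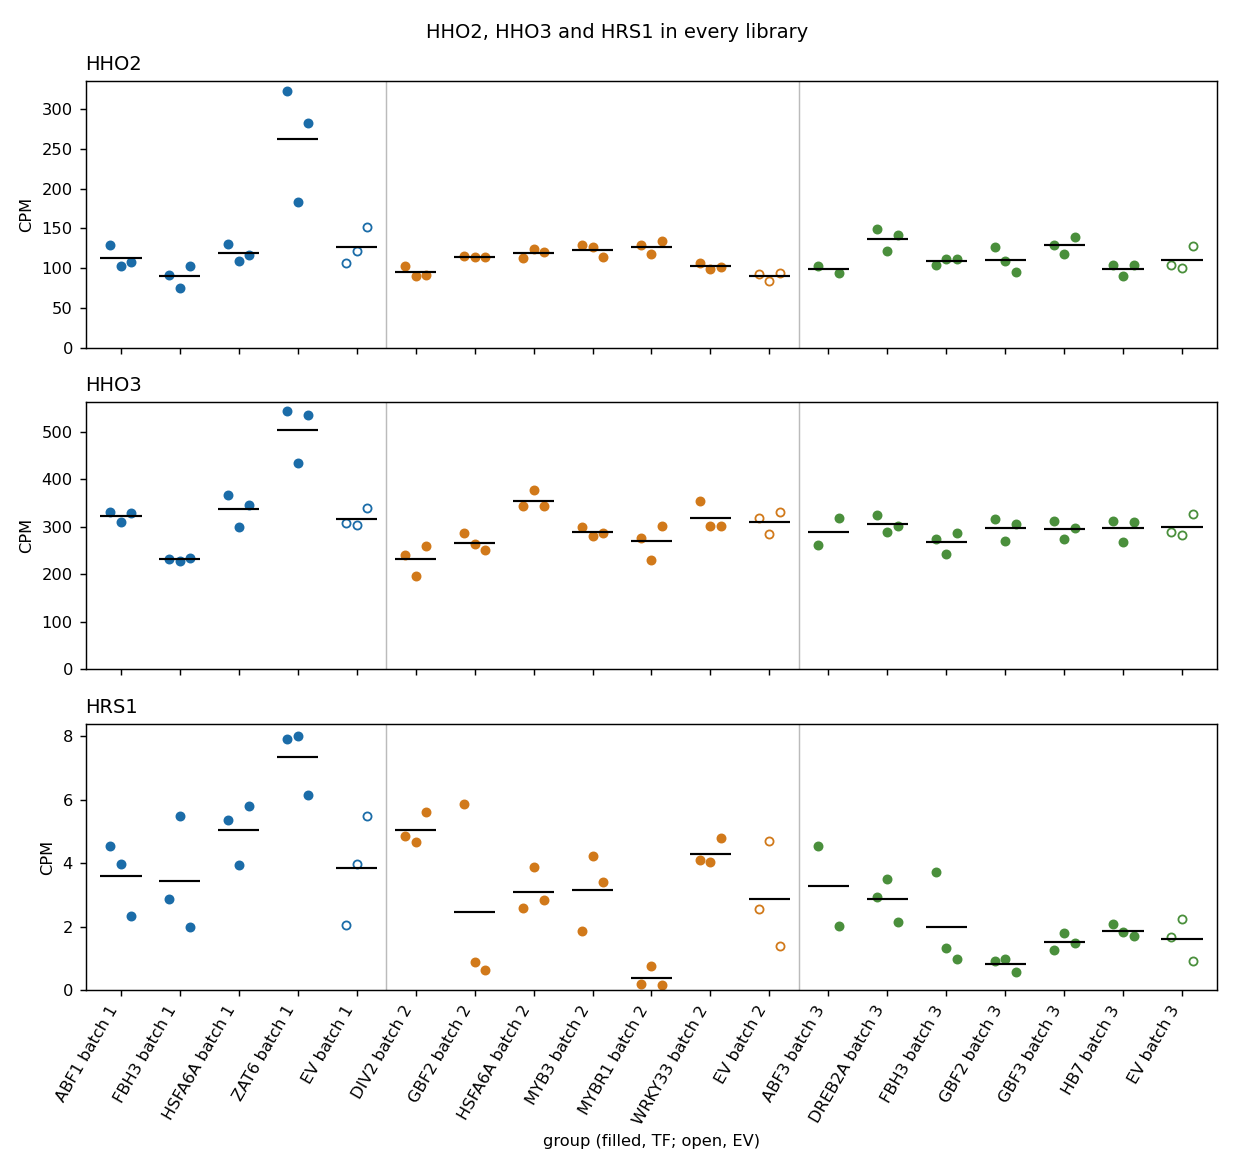
CPM of HHO2, HHO3 and HRS1 in every library, by batch, with TF groups (filled circles) to the left of EV (open circles) and the group mean as a bar; each vertical axis starts at 0. HHO2 and HHO3 are highest in ZAT6 cells, at 183 to 323 and 433 to 545 CPM, and HRS1 is lowest in MYBR1 cells, at 0.179 to 0.756 CPM.

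TGA1 (chromosome 5, 26057533 to 26061157, plus strand) was called in 1 comparison, lower. In FBH3 cells of batch 1 it had 38.4 ± 3.45 CPM, against 67.4 ± 16.9 CPM in EV cells (SD, n = 3 each; log2 fold change -0.78, SE 0.22, adjusted p = 0.045, edgeR). The call was lost in 5 of the 6 fits without 1 library, all but that without EV replicate 2, with log2 fold changes of -0.83 to -0.57 and adjusted p-values of 0.0686 to 0.243. In FBH3 cells of batch 3 its log2 fold change was -0.22 and not called, and the difference between batches was 0.61 (SE 0.29, adjusted p = 0.65). In HB7 cells TGA1 had 93.1, 91.5 and 81.6 CPM, against 70.4, 63.8 and 41.5 CPM in EV cells of batch 3, with no overlap but no call (log2 fold change 0.63, adjusted p = 0.078, edgeR). It was called higher there by DESeq2 (adjusted p = 0.031), and by edgeR under 1 model of all 56 libraries (adjusted p = 0.021) and without the filter (adjusted p = 0.042).

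NLP7 (chromosome 4, 12479528 to 12484049, plus strand) was not called in the 16 comparisons with EV by the edgeR test used throughout, and it was called lower in WRKY33 cells when a replicate block was added (-0.43, adjusted p = 0.026). Its log2 fold changes ran from -0.43 in GBF2 cells of batch 2 to 0.51 in HB7 cells, 4 had an unadjusted p under 0.05, and DESeq2 called none. In HB7 cells it had 48.7, 47.3 and 44.2 CPM, against 42.0, 33.4 and 25.4 CPM in EV cells, a narrow separation with an adjusted p of 0.0967. LBD37 (chromosome 5, 26903866 to 26906524, minus strand) was likewise not called, with log2 fold changes from -0.57 in HSFA6A cells of batch 1 to 1.44 in GBF2 cells of batch 3. In the GBF2 cells of batch 3 it had 10.3, 10.1 and 9.82 CPM, against 4.82, 4.54 and 1.97 CPM in EV cells, without overlap (adjusted p = 0.078, edgeR). Over the 16 comparisons of LBD37, 2 had an unadjusted p under 0.05, and DESeq2 called 1, that in GBF2 cells of batch 3. That rise was also called by edgeR under 1 model of all 56 libraries (1.39, adjusted p = 0.022) and without the filter (1.38, adjusted p = 0.048), and with both batches of GBF2 in 1 fit LBD37 was called higher (1.23, adjusted p = 0.040).

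LBD39 (chromosome 4, 17639393 to 17640925, minus strand) passed the filter on low counts in 12 comparisons and was called in 0, with an unadjusted p under 0.05 in 3 and no call by DESeq2. Its largest fitted value, 4.20 in ABF3 cells (adjusted p = 0.27, edgeR), rested on 57 and 31 counts in ABF3 libraries, against 0, 6 and 0 counts in EV libraries of batch 3. Such a fitted fold depends on how zero counts are treated. In ZAT6 cells LBD39 did not pass the filter, with no count in any library, against 29, 8 and 5 counts in EV cells. It was called lower there by edgeR under 1 model of all 56 libraries (-7.14, adjusted p = 0.045), a fold that rests on these zero counts. Against the other TFs of batch 1 in place of EV, edgeR called it lower in ZAT6 cells (-7.11, adjusted p = 0.0085). In FBH3 cells of batch 1 that contrast called it higher (3.60, adjusted p = 0.0089). HHO1 (chromosome 3, 9413052 to 9415240, plus strand) passed the filter in none. It had no count in 33 of the 56 libraries and at most 33 counts, in an EV library of batch 3, so its response was not detectable at this depth.

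In 9 of the 16 comparisons no member was called. The shares of all genes called there were 0.495% in ABF1, 1.81% in ABF3, 2.72% in DREB2A, 12.8% in GBF2 of batch 2, 8.85% in GBF2 of batch 3, 0.0157% in GBF3, 0.0106% in HSFA6A of batch 1, 2.53% in HSFA6A of batch 2 and 6.22% in WRKY33 cells. Over these 9 comparisons together, 11 pairs of member and TF had an unadjusted p under 0.05, and DESeq2 called 2 pairs, LBD38 in DREB2A cells (log2 fold change 1.2, adjusted p = 0.011) and LBD37 in GBF2 cells of batch 3 (1.41, adjusted p = 0.039).

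For FBH3, GBF2 and HSFA6A, which were assayed in 2 batches, the edgeR interaction test found 0 of 27 member responses that differed between batches, and DESeq2 0 as well. Of these 27, 4 had an unadjusted p under 0.05, 3 for FBH3 (LBD38, HHO2 and TGA1) and 1 for HSFA6A (HHO2, difference 0.49, SE 0.18, adjusted p = 0.24). Over all genes the same test called 0.0254% for FBH3, 6.26% for GBF2 and 2.56% for HSFA6A.

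Genes around these regulators in the nitrate pathway were described from 3 lists. Of 13 genes for nitrate uptake and assimilation, 11 passed the filter, and 9 pairs of gene and comparison were called higher and 8 lower of 176 tested (9.66%). FBH3 cells held 7 of the 9 higher calls. In batch 1, NIA2, a nitrate reductase gene, NIR1, the nitrite reductase gene, and UPM1, which makes a precursor of the siroheme cofactor of nitrite reductase, rose with log2 fold changes of 1.16, 1.62 and 1.42. In batch 3, NIA2 (1.73), NIR1 (1.18), NIA1 (1.06) and UPM1 (1.17) rose, and NRT2.5 fell by 0.94 on the log2 scale. The median over the 11 genes was 0.52 in FBH3 cells of batch 1 and 0.34 in batch 3, beside -0.0046 and 0.0089 over all genes tested. The same FBH3 libraries carried the high LBD38 values. CHX was present in all of them, and a link between LBD38 and these genes was not tested.

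NRT3.1, the partner protein of high-affinity nitrate transporters, was lower in 4 comparisons, all of batch 2 and thus with the same EV libraries. Its level was 42.4 ± 7.44 CPM in GBF2 cells, 41.9 ± 9.98 CPM in DIV2 cells and 38.9 ± 8.78 CPM in MYB3 cells, against 84.3 ± 4.99 CPM in EV cells of batch 2 (SD, n = 3 each). In the same GBF2 libraries the summed root markers were at 33.4 to 47.9 CPM, against 80.3 to 88.6 CPM in EV cells, with SCR (-1.04) and CASP1 (-5.91) called lower and CASP1 at 0 to 0.489 CPM. The marker levels of FBH3, DIV2, MYB3 and MYBR1 cells also differed from those of EV cells. In batch 2 the sum was below EV in HSFA6A (61.9 to 70.2 CPM) and WRKY33 cells (60.2 to 66.4 CPM) too. It was thus below the shared EV libraries in every TF group of that batch. The part of such differences in the responses of pathway genes and relatives of the members was not tested. NRT2.5, a transporter gene of nitrogen-starved plants, rose in MYB3 cells (89.4 ± 9.96 CPM, against 32.8 ± 1.27 CPM in EV cells; log2 fold change 1.44) and fell in DIV2 cells (14.5 ± 6.94 CPM against the same EV libraries; -1.17) and in GBF2 cells of batch 3 (-1.34). NRT1.1, the dual-affinity transporter and nitrate sensor, rose in HB7 cells with a log2 fold change of 1.72 (SE 0.44).

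Of 23 close relatives of the members, 21 passed the filter, and 21 pairs were called higher and 11 lower of 336 (9.52%). BT1 made 8 of these 32 calls. NLP9, a relative of NLP7, rose in GBF2 cells of batch 2 (log2 fold change 3.14), MYB3 cells (3.09) and MYBR1 cells (2.97) over an EV level of 1.01 ± 0.39 CPM (SD, n = 3). These comparisons share that low EV level, so their likeness is no independent support. NLP4 rose in FBH3 cells of batch 1 (1.14) and batch 3 (0.96), and NLP1 in HB7 cells (1.79). Of the TGA relatives, TGA3 was called higher in 2 and lower in 2 comparisons and TGA4 lower in 2.

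Of 16 other regulators of nitrate signalling, 13 passed the filter, and 13 pairs were called higher and 18 lower of 208 (14.9%). NRG2, which acts with NLP7, rose in 4 comparisons, among them GBF2 cells of batch 2 with 44.3 ± 10.1 CPM, against 15.5 ± 3.32 CPM in EV cells (log2 fold change 1.5). Its rises in MYB3 and MYBR1 cells share these EV libraries. TCP20, a regulator of nitrate foraging, was lower in 5 comparisons and higher in WRKY33 cells (0.78). These counts stand beside 5.93% of all pairs tested.

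Likeness of pattern was described by Pearson's r over the 56 libraries, on log2(CPM + 1) after the mean of each batch was subtracted, against 9627 genes with a mean log2 CPM of at least 3. The libraries share batches and cells, so r is a description. Group means were not subtracted, so r also holds the called responses given above, such as those in ZAT6, FBH3 and DIV2 cells. BT2 was most like AT5G04760, which is the gene of DIV2, the TF transfected in the DIV2 libraries (r = 0.87), followed by AT1G72900 (r = 0.84). LBD38 was most like AT2G28510 (r = 0.89) and AT5G07580 (r = 0.87), HHO2 like AT4G30600 (r = 0.85) and AT5G38710 (r = 0.79), and HHO3 like AT3G50910 (r = 0.83) and AT3G62240 (r = 0.81). For the other members the highest r was 0.72 for TGA1, 0.64 for LBD37, 0.63 for NLP7, 0.62 for HRS1, 0.56 for LBD39 and 0.49 for HHO1. Among the 10 genes themselves, HHO2 and HHO3 were the pair with the highest r, 0.71, and LBD38 and HHO3 the pair with the lowest, -0.60.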

How the data were processed

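RNA-seq was done by the authors on root protoplasts of the TARGET assay, 56 libraries in all. Alignment to TAIR10 was done by the authors with HISAT2 (version 2.0.5 in the submitters' processing notes, which also name DESeq2 1.22.1). The authors' deposited values are raw read counts per gene from GenomicFeatures and GenomicAlignments. Whether strand was used in counting is not given in the sources used here. The study's removal of CHX-responsive genes was not repeated. Of the 33016 genes, 32795 had an entry in the RefSeq annotation used for names, coordinates and sequence.

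Each TF was compared with EV by the quasi-likelihood test of edgeR 4.0.16 (R 4.3.3) after TMM normalization, with filterByExpr (minimum count 10) and a model of TF and batch that used the 9 EV libraries of all batches, at a Benjamini-Hochberg adjusted p under 0.05. CPM were derived from the deposited counts by TMM scaling across the libraries, and RPKM by division by exon length. On simulated data with 200 changed genes (HB7, batch 3), 35.5% of 2-fold changes were recovered with 4 false calls among 18935 genes. Of 4-fold changes, 76.0% were recovered with 11 false calls among 18915, so many 2-fold changes were missed in that setting. The simulated counts held no batch differences, and the changed genes had means above 1 CPM. Other comparisons and genes below that level were not simulated. Of 55 replicate pairs, 0 were identical, and each differed by more than sampling noise (lowest chi-square per degree of freedom, 4.11).

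The members and lists were chosen with earlier results of these data known. Values of every library were given by rule for calls with an absolute log2 fold change of at least 1 and no overlap with EV; those of HHO3 in ZAT6 cells, of uncalled pairs and of BT1 were added after the values were seen, as were the word CANNTG and the choice of sequences. For the lists, the rule named the 2 called genes with the largest absolute change per comparison; NIA1, UPM1 and NRT2.5 in FBH3 cells of batch 3, NIA2 in batch 1, TCP20, TGA3 and TGA4 were added. The alternatives were DESeq2 (1.42.0), its size factors in edgeR, no filter, EV of the same batch only, 1 model of all libraries, the remaining TF libraries as control, a replicate block, both batches of a TF in 1 fit, each library left out, and 4 ribosomal RNA-like loci left out. That last choice was added after the files were seen, since the loci first planned are not rows of these tables and were not used.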

Additional observations from a re-analysis of the deposited data

How the results depend on the processing

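Counts of called pairs (9 higher, 3 lower) moved with the control libraries. With the remaining TF libraries of a batch as control, 16 pairs were called higher and 17 lower; that contrast sets a TF against other TFs, FBH3 among them. NLP7 was called there in FBH3 (0.43) and GBF2 cells (-0.41) of batch 3 and in HB7 cells (0.44). Under 1 model of all 56 libraries 6 were lower, and with a replicate block 7, among them LBD38 in MYB3 (-1.40) and ZAT6 cells (-1.73), NLP7 in WRKY33 cells (-0.43) and TGA1 in MYBR1 cells (-0.43). Leaving out 1 library gave 7 to 12 higher and 2 to 3 lower. DESeq2 called 12 higher and 4 lower, and no filter gave 12 higher and 3 lower. No call reversed its direction. BT2 in DIV2 and FBH3 cells, LBD38 in FBH3 cells of both batches, HHO2 and HHO3 in ZAT6 cells, HHO3 in DIV2 cells, HRS1 in MYBR1 cells and TGA1 in FBH3 cells of batch 1 were kept under all 8 or 9 alternatives other than leaving out a library. With the other TF libraries as control, LBD38 in HB7 cells (log2 fold change 0.23), HHO2 in MYB3 cells (0.16) and HHO2 in MYBR1 cells (0.20) were not called; the first was also lost with a replicate block (1.44, adjusted p = 0.17). In FBH3 cells of batch 1, HHO3 was called lower by DESeq2 (-0.42, adjusted p = 0.0038) and with the ribosomal RNA-like loci left out (adjusted p = 0.046). With both batches of FBH3 in 1 fit, LBD38 (3.79), BT2 (1.34), HHO3 (-0.31) and TGA1 (-0.52) were called. The deviations of same-numbered TF and EV libraries correlated at -0.10 to 0.31. In no comparison with 3 pairs did every pair exceed 0.1, the level set for pairing. Both pairs of ABF3 did (0.130 and 0.103). The numbers were not taken to pair the libraries in any comparison. With the replicate block the test of batch differences called 1 in place of 0 (HHO2, HSFA6A). Leaving out 1 library kept that count at 0. For EV levels between batches, DESeq2 called 1 member, HHO2 (adjusted p = 0.049), as did the model of all 56 libraries (adjusted p = 0.028), and leaving out 1 library gave 0 to 1 (HHO2, without replicate 1 of batch 3). Depth limits HHO1 and LBD39.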
